A study of Rattus norvegicus with 113 samples.

Results

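The late effect of traumatic brain injury (TBI) was compared between the hippocampus and the cortex of rats 6 months after the injury. The quantity of interest was the region difference, which is TBI minus sham in the hippocampus less TBI minus sham in the cortex. A negative region difference means that the level in the TBI rats, set against sham, was lower in the hippocampus than in the cortex. It was computed from 16 arrays of 113 in the series, 4 in each of 4 groups, namely hippocampus sham, hippocampus TBI, cortex sham and cortex TBI. All animals were adult male Sprague-Dawley rats. TBI rats received a parasagittal fluid percussion injury, a pulse of fluid onto the exposed dura, and sham rats had the same surgery without the pulse, so that both groups carry the effects of anaesthesia and of the opening in the skull. A further 8 arrays came from naive rats of the same interval, which had no surgery, and served as background. The hippocampus was taken whole and the cortex as a piece of tissue beneath the injury site, so each array averages over every cell type in the piece. In such bulk tissue, fewer cells of a type and less RNA per cell cannot be told apart.

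Several of the genes described below are best known from 2 specialised epithelia of the brain. The choroid plexus is a folded epithelium in the ventricles that secretes cerebrospinal fluid, and the ependyma is the layer of cells with motile cilia that lines the ventricles and moves that fluid. Microglia are the resident macrophages of the brain, and they and the astrocytes change their gene expression after injury, with raised lysosomal, complement and acute phase genes.

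Levels are given as log2 of the processed probe intensity minus the median of the array, so a value of 0 is the median probe of that array and 1 unit is a factor of 2 in intensity. A probe was tested if all 4 arrays of some group measured it well above background, which left 25006 of 45598. An array had 46.6% to 59.7% of its probes well above background, and the cortex TBI arrays were the narrowest group, at 57.5% to 59.7%. No probe was saturated. Each of the 4 groups lay on a slide of its own, and the hippocampus and cortex arrays were scanned on different days, so that slide and group cannot be told apart. The naive arrays shared the slide of the sham arrays of their tissue. The median of the probes that were not tested was lower in TBI than in sham arrays, by a log2 difference of -0.70 in the cortex and -0.34 in the hippocampus. The tissue labels could be checked against a marker of the dentate gyrus. C1ql2 lay between 5.68 and 7.02 in the 8 hippocampus arrays of sham and TBI rats and between 0.79 and 3.04 in the cortex, with the 2 highest cortex values in sham replicate 4 and TBI replicate 1.

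The arrays of both tissues with the same replicate number came from the same rat, as the animal numbers in the deposited names show. The differences can therefore be written for each of 8 rats. The deviations of the 2 tissues of a rat from their group means correlated at 0.19 to 0.41 across probes, and each hippocampus array correlated best with the cortex array of its own number.

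Folr1, which encodes a folate receptor that is abundant in the choroid plexus epithelium, was the 1 probe of 25006 called for a region difference at an adjusted p under 0.05, which is 0.004% of the probes tested. In cortex sham its level was -2.93, -2.83, -2.43 and -2.38 in replicates 1 to 4, and it was 2.16, 0.97, 1.70 and 1.69 in cortex TBI. In the hippocampus it was 1.66, 1.74, -0.15 and 1.69 in sham and 1.53, 1.45, 1.26 and 1.4 in TBI. The cortex groups did not overlap, whereas the hippocampus groups did, with sham replicate 3 below all others, and of the 4 cortex TBI arrays 3 lay in the range of the hippocampus arrays and replicate 1 above it. The region difference was -4.09 ± 0.50 (log2, SE, n = 4 arrays a group), with an adjusted p of 0.0229 by limma. Its 2 parts were 4.27 ± 0.36 in the cortex, with an adjusted p of 0.000168, and 0.18 ± 0.36 in the hippocampus, with an adjusted p of 0.909. Since no cortex sham array was well above background for this probe, the rise in the cortex is stated as a bound, at least 6.5-fold. With the cortex effect at that bound the region difference was -2.52. With normexp background correction, an alternative chosen after seeing the data, it was -1.66 and the call was lost (adjusted p = 1).

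Within rats, the hippocampus minus cortex level of Folr1 was 4.59, 4.57, 2.28 and 4.06 in the sham rats and -0.63, 0.49, -0.45 and -0.29 in the TBI rats. The groups did not overlap. With each rat as a block, however, limma called 0 probes, and the adjusted p of Folr1 was 0.479 (unadjusted 2.82e-05). The call was also lost in most of the fits that left out an array or a rat. The adjusted p stayed under 0.05 in 3 of these 24 fits and reached 0.342 in the least favourable. In these fits the difference ranged from -4.63 to -3.86.

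At a fold of 1.4 and an unadjusted p under 0.05, the thresholds in the study's methods, 293 probes had a negative region difference (1.17% of those tested) and 213 a positive one (0.852%). A total of 839 of 25006 probes had an unadjusted p under 0.05, of any fold. That is fewer than the share of about 0.05 that would arise if no probe had a region difference. The fit took the 2 tissues of a rat as independent. With each rat as a block, 1193 probes had an unadjusted p under 0.05 by limma, nearer to that share. In that fit 428 negative and 284 positive differences passed the fold as well. The 293 and 213 probes are therefore described as passing a threshold, and not as probes shown to differ. The median effect of the 293 probes was 0.65 in the cortex and -0.23 in the hippocampus, and that of the 213 probes was -0.26 in the cortex and 0.41 in the hippocampus; these medians follow from the choice of probes. The level in naive rats was not used in the contrast, but it is not independent of it. The filter on dim probes, which a probe can pass through the tissue where it is high, can favour one tissue. Naive and sham arrays of a tissue also shared a slide, while the TBI arrays lay on others. A difference between slides would enter the region difference and the naive hippocampus minus cortex level with opposite signs. Its part in the counts that follow was not tested. Of the 293 probes, 225 (76.8%) were higher in naive hippocampus than in naive cortex, with a median difference of 0.72, whereas 44.1% of all tested probes were, with a median of -0.07. Of the 213 probes with a positive difference, 63 (29.6%) were higher in naive hippocampus. Both sets held many dim probes. Of the 293 probes 34.8% were well above background in all 16 arrays, and of the 213 probes 49.3%, against 80.5% of the tested probes. A count added after seeing the data kept only the probes that were well above background in all 16 arrays. Of these, 81 of 102 with a negative difference (79.4%) were higher in naive hippocampus. So were 28 of 105 with a positive difference (26.7%) and 44.6% of all 20141. This restriction bears on the filter but leaves the slide shared by naive and sham arrays in place. The count therefore cannot separate a difference between slides from an effect of TBI.

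**Figure D1:**
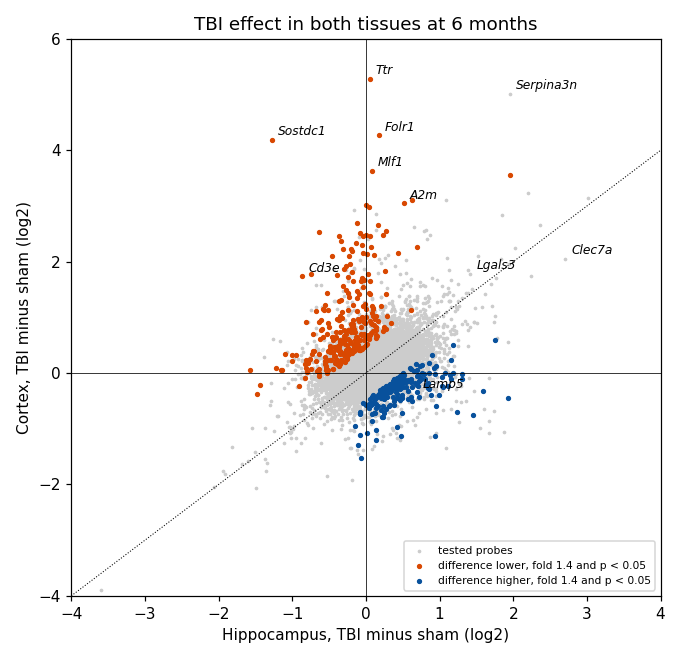
Each point is 1 of 25006 probes, with the log2 difference of TBI minus sham in the hippocampus on the horizontal and in the cortex on the vertical axis. Orange and blue mark the 293 probes with a lower and the 213 with a higher region difference at a fold of 1.4 and an unadjusted p under 0.05; the dotted line marks equal effects. The orange points rise along the cortex axis, with Folr1 at 0.18 and 4.27.

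Several choroid plexus genes were higher after TBI in the cortex. Of 20 tested genes on a list of choroid plexus markers, 7 passed the fold and p threshold upwards in the cortex and 0 downwards, while 0 passed in the hippocampus in either direction. In the cortex 3.55% of all tested probes passed upwards and 0.632% downwards, and in the hippocampus 2.28% and 0.668%. For the region difference 5 of the 20 passed downwards and 0 upwards, with a list median of -0.31 against 0.00 for all named genes. These 5 were Folr1, Calml4, Sostdc1, Krt18 and Ttr. Calml4, a calmodulin-like protein of epithelia with brush borders, was the tightest of them. It lay at 0.74, 1.11, 0.92 and 0.94 in cortex sham and at 2.44, 2.83, 2.09 and 2.95 in cortex TBI, a rise of 1.65 ± 0.23 with an adjusted p of 0.0138. In the hippocampus it stayed between 4.12 and 5.15 in sham and between 4.29 and 4.98 in TBI, and the region difference was -1.72 ± 0.33 (unadjusted p = 0.000125, adjusted 0.779). Its level in the cortex of TBI rats thus remained below every hippocampus array, unlike that of Folr1.

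Sostdc1, a secreted antagonist of BMP and Wnt signalling, had the lowest region difference among the named genes, -5.46 ± 1.14 (adjusted p = 0.863). It was measured at -2.92, -3.10, -0.45 and -1.86 in cortex sham, where 1 of 4 arrays was well above background, and at 3.51, 3.10, 1.13 and 0.69 in cortex TBI. The hippocampus values spread widely and overlapped, from -0.10 to 2.19 in sham and from -1.24 to 1.21 in TBI. Ttr, which encodes the thyroxine carrier transthyretin of the choroid plexus, was 2.44, 0.10, 6.02 and 4.28 in cortex sham and 9.70, 10.1, 7.29 and 6.81 in cortex TBI. The cortex groups did not overlap, but a spread of several log2 units within sham left the region difference of -5.23 ± 1.48 at an unadjusted p of 0.00324. Krt18, a keratin of simple epithelia, had a cortex difference of 1.66 ± 0.50, with TBI replicate 2 at 3.15, while the other TBI arrays lay at 0.83 to 1.43 and the sham arrays at -0.17 to 0.27. The brightest other members of the list, Igf2, Igfbp2, Enpp2 and Slc4a2, did not pass the threshold. Igf2 and Igfbp2, a growth factor and one of its binding proteins, had positive region differences of 0.54 (unadjusted p = 0.474) and 0.58 (unadjusted p = 0.425), opposite in sign to the 5 genes above, and Enpp2 and Slc4a2 had -0.11 and -0.02. Igf2 and Igfbp2 are also on the list of meninges and extracellular matrix described below. Cortex TBI replicate 1 was low for both, at 5.64 and 4.86. The other cortex TBI arrays lay at 7.75 to 8.71 for Igf2 and at 7.18 to 7.93 for Igfbp2. Aqp1, the water channel of the apical membrane of the choroid plexus, had log2 effects of 0.54 (hippocampus) and 0.45 (cortex) and did not pass the threshold.

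Of 14 tested genes of the list of motile cilia and ependyma, 6 passed upwards in the cortex, 0 in the hippocampus and 3 downwards for the region difference, and the list medians were 0.60, -0.06 and -0.72. Mlf1, a gene expressed in cells with motile cilia, lay at -2.87, -2.14, -1.33 and -0.34 in cortex sham and at 1.73, 2.48, 2.16 and 1.49 in cortex TBI. The cortex rise of 3.63 ± 0.54 had an adjusted p of 0.0174 and, with no sham array well above background, was at least 7.50-fold, at which bound the region difference was -2.83. Hippocampus levels overlapped, at 0.86 to 3.15 in sham and 1.88 to 3.01 in TBI, and the region difference was -3.55 ± 0.76 (adjusted p = 0.863). Cfap126, a protein of the ciliary axoneme, was -1.43, -1.29, -0.41 and 1.00 in cortex sham and 3.24, 0.75, 3.40 and 2.57 in cortex TBI, so that here TBI replicate 2 fell inside the sham range. Its region difference was -3.02 ± 0.92 (unadjusted p = 0.0052). Tekt4, a tektin of ciliary microtubules, was the third, with -1.10 ± 0.38 (unadjusted p = 0.011).

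Cortex TBI replicate 2 stood apart for several ciliary genes, though not for all. Foxj1, the transcription factor that directs the formation of motile cilia, was 3.54, 1.23, 3.79 and 3.86 in the 4 cortex TBI arrays and 0.95 to 2.08 in sham. Tmem212, an ependymal gene, was 2.14, -3.77, 2.52 and 1.52 against -3.35 to -0.31. In both genes replicate 2 was in the sham range or below it while the other 3 TBI arrays were above it. Mlf1, in contrast, was highest in replicate 2, at 2.48 against 1.49 to 2.16 in the other cortex TBI arrays. Daw1, described below, lay within its group there, at -0.50. The median level of the cilia list, centred on each gene's mean, was -0.80 in that array, against 0.16 to 0.35 in the other cortex TBI arrays and -0.92 to -0.60 in sham. Without this array 9 of the 14 genes passed downwards for the region difference, with a median of -0.99. The same array had the highest level of the choroid plexus list, 1.02, against 0.43 to 0.83 in the other TBI arrays and 0.01 to 0.19 in sham. On the hippocampus side sham replicate 3 was lowest for both lists, and without it 7 of 20 choroid plexus and 8 of 14 ciliary genes passed.

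**Figure D2:**
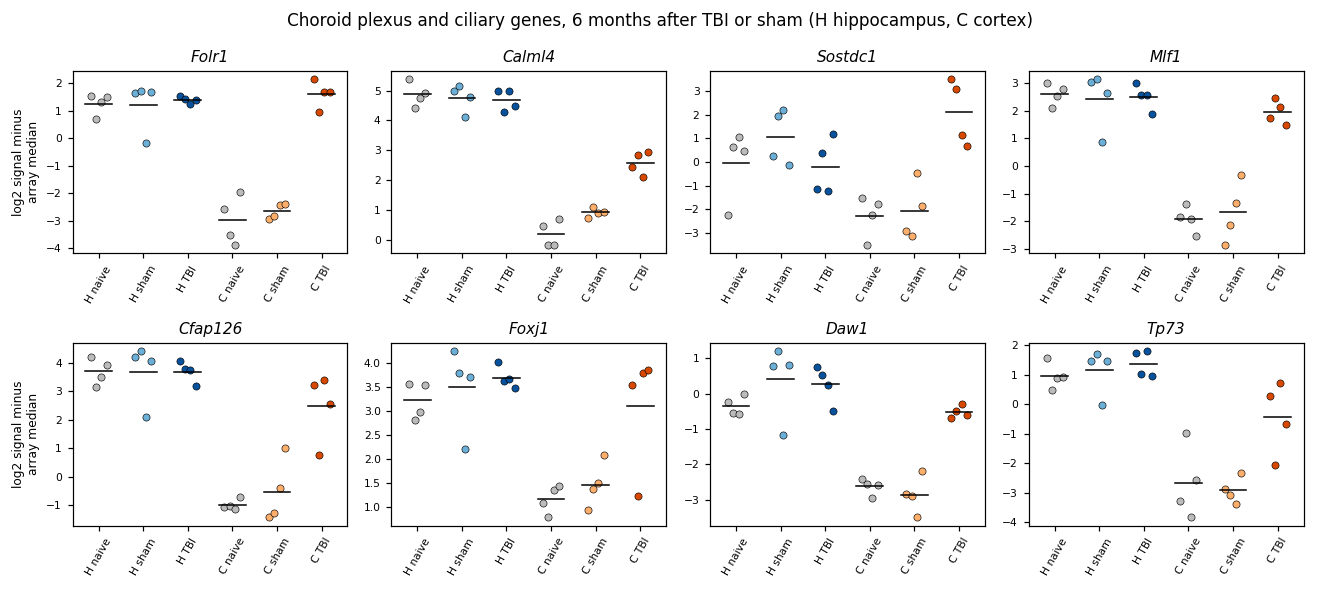
Level of 8 choroid plexus and ciliary genes (log2 signal minus the array median) in each of the 24 arrays, with a bar at the group mean. In every panel the cortex TBI mean lies above the naive and sham means of the cortex, and for Folr1 the 4 cortex TBI arrays lie at 0.97 to 2.16, with replicate 1 above every hippocampus array of sham and TBI rats.

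The other genes among the 10 lowest region differences whose rats did not overlap were on no ciliary or choroid plexus list. Daw1, which takes part in the assembly of ciliary dynein, was -3.5 to -2.20 in cortex sham and -0.70 to -0.29 in cortex TBI, with a region difference of -2.47 ± 0.61 (unadjusted p = 0.00109). Its cortex rise was called, with an adjusted p of 0.0425, and was at least 1.46-fold, since no sham array was well above background. With the cortex effect at that bound its region difference was -0.69. Tp73, a relative of p53 that is needed for cells with many cilia, had a region difference of -2.26 ± 0.73, and in the cortex was at least 1.56-fold higher after TBI (adjusted p = 0.0712), with a region difference of -0.41 at that bound. Rgs22, a regulator of G protein signalling known from testis, had -2.28 ± 0.67, with a called cortex rise of 2.55 ± 0.48. The other 4 were Slc26a4, an anion exchanger, at -2.72 ± 0.79, Cd3e, a chain of the T cell receptor complex, at -2.61 ± 0.71, Amn, a partner of the cubilin receptor, at -2.53 ± 0.48, and A2m. Slc26a4 and Cd3e were not well above background in any cortex sham array and were at least 1.81-fold and 1.87-fold higher in cortex TBI. At those bounds their region differences were -1.19 and -1.77. All 10 were higher in naive hippocampus than in naive cortex, a count that the filter on dim probes and the slide shared by naive and sham arrays can favour. Cd3e lay at 2.12 to 2.41 in hippocampus sham and at -0.05, 1.79, 2.39 and 1.38 in hippocampus TBI, and of 12 tested T cell genes it was the 1 that passed the threshold for the region difference.

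A2m, alpha-2-macroglobulin, a proteinase inhibitor and acute phase protein of the rat, lay at 1.56, 1.77, 2.99 and 3.05 in cortex sham and at 4.25, 6.29, 4.53 and 6.48 in cortex TBI, and the rise of 3.04 ± 0.47 had an adjusted p of 0.0209. In the hippocampus it lay at 4.53 to 4.93 in sham and 4.97 to 5.65 in TBI, without overlap, a difference of 0.52 ± 0.47. The region difference of -2.53 ± 0.66 had an unadjusted p of 0.00183. Both probes of the gene had the same sign. Ptx3, a pentraxin of innate immunity, had a region difference of -2.01 ± 0.47 (unadjusted p = 0.000788) and a called cortex rise of at least 2.18-fold (adjusted p = 0.0425), with a region difference of -1.31 at that bound. Serpina3n, a proteinase inhibitor of reactive astrocytes, was -3.52 to -2.08 in cortex sham, where no array was well above background, and -0.78, 3.63, 1.14 and 4.92 in cortex TBI, at least 9.85-fold higher (adjusted p = 0.085). Its region difference was -3.05 ± 1.59 (unadjusted p = 0.0742), and -1.34 at the bound.

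The mitotic genes Prc1, a protein of the central spindle, and Cdca3, a regulator of mitotic entry, were called in the cortex as well. Prc1 was -0.53 to -0.14 in cortex sham and 0.86 to 1.47 in cortex TBI, a rise of 1.47 ± 0.24 (adjusted p = 0.0299), with a region difference of -1.60 ± 0.34 (unadjusted p = 0.000345). Its 2 probes were both called in the cortex. Cdca3 was -2.56 to -1.94 and then -1.14 to -0.72, a difference of 1.43 ± 0.19 (adjusted p = 0.0137), stated as at least 1.14-fold because no sham array was well above background. At that bound its region difference was 0.08, against a measured -1.15, so its direction between the tissues is not settled. Both genes were higher in naive hippocampus, by 2.10 and 1.45.

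Sequence upstream of the genes with a negative region difference was examined, because RFX factors and FOXJ1 are known to act at promoters of ciliary genes. A gene entered if any of its probes passed the fold and p threshold. The promoters, 250 bases before to 50 bases after the gene start, were taken from RefSeq (build GRCr8). The RFX half-site GTTGCCA, read on both strands, occurred in 12 of 106 promoters matched among 137 genes (11.3%), against 4.1% of those of 9367 tested named genes and 4.56% of 33469 promoters in the table. Of 72 promoters of genes with a positive difference 3 held it (4.17%), and of 7 among the 10 highest differences 1 did, that of Lamp5. The forkhead core TGTTTAC, also read on both strands, occurred in 4 of 106 (3.77%), against 2.44% of the tested named genes, 3.78% of the table and 2.78% of the genes with a positive difference. The promoters of Mlf1, Iqcg and Cfap161 are shown because these genes had the lowest region differences among those with the half-site. Capitals mark the half-site and, in Mlf1, the forkhead core. Mlf1 lies at chr2:153958341-153958640 (plus strand), Iqcg lies at chr11:81235080-81235379 (plus strand) and Cfap161 at chr1:147177772-147178071 (minus strand).
Mlf1: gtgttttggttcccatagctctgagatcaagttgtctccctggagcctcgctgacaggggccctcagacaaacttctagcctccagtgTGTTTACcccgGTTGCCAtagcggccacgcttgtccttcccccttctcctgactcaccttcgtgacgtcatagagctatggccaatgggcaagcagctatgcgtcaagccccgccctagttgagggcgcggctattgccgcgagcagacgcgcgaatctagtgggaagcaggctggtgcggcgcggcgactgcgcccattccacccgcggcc
Iqcg: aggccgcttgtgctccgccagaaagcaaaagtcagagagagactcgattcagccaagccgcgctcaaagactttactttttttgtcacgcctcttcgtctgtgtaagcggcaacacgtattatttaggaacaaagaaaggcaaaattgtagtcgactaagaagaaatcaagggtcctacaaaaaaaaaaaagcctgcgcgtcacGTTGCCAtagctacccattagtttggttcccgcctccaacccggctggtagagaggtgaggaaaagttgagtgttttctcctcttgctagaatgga
Cfap161: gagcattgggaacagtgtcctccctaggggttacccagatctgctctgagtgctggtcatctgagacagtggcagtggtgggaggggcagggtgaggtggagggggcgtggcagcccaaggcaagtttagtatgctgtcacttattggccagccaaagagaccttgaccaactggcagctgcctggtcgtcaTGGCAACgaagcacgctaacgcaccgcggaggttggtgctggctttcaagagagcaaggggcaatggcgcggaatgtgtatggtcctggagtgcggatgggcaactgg
Iqcg, a protein of ciliary axonemes, had a region difference of -2.17 (unadjusted p = 0.00833), with log2 effects of -0.30 in the hippocampus and 1.87 in the cortex. Cfap161, another axonemal protein, had -2.01 (unadjusted p = 0.0481), with 0.11 and 2.12. The other genes with the half-site included Kif9, a kinesin of motile cilia, at -0.64, and Tsnaxip1 at -1.70. A match is a description of these windows and not of binding.

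Positive region differences were smaller. One of the 10 highest by the same rule, Igsf7 l1, a member of a family of immune receptors, was well above background in 0 of 4 hippocampus sham and 1 of 4 hippocampus TBI arrays, so its value is not read as a difference, and with naive in place of sham it turned to -0.33. The other 9 lay between 0.52 and 1.04. Ttpa, the carrier protein of vitamin E, had the smallest p among them. It was 2.38, 2.72, 2.71 and 2.82 in hippocampus sham and 3.18, 3.07, 3.21 and 3.15 in hippocampus TBI, and 2.63, 2.62, 2.88 and 3.13 in cortex sham and 2.60, 2.22, 2.26 and 2.61 in cortex TBI. The hippocampus groups did not overlap and the TBI arrays were higher, while in the cortex the TBI arrays were lower. The region difference was 0.88 ± 0.19, with an unadjusted p of 0.000319 and an adjusted p of 0.863. Lamp5, a membrane protein of cortical layer and interneuron types, was 3.87 to 4.71 in hippocampus sham and 4.62 to 5.65 in hippocampus TBI, with 6.83 to 7.09 and 6.36 to 6.96 in the cortex, a region difference of 1.04 ± 0.31 (unadjusted p = 0.00447). Cacnb4, a subunit of voltage-gated calcium channels, had 0.91 ± 0.30, but its rats overlapped and it is not among the 10. Slc9a9, a sodium-proton exchanger of endosomes, had 0.63 ± 0.15, Herpud1, a protein of the response to unfolded proteins, 0.53 ± 0.16, and Pdp1, the phosphatase that activates pyruvate dehydrogenase, 0.52 ± 0.17. Of the 10 genes 4 were higher in naive hippocampus.

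The list of meninges and extracellular matrix had the highest median region difference, 0.66 over 21 tested genes, with medians of 0.48 in the hippocampus and -0.19 in the cortex. Of the 21, 1 passed upwards, Slc13a3, a transporter of dicarboxylates, at 0.86 ± 0.37. Cortex TBI replicate 1 stood apart here. Col1a1, a chain of type I collagen, was 2.54 in that array, against 4.87 to 5.61 in the other TBI arrays and 4.17 to 5.48 in sham, and the list level was -0.76, against 1.11 to 1.68 and 0.70 to 1.75. Without that array the list median was 0.105 and 0 genes passed. The same array changed the list of MHC class II, the molecules that present antigen to helper T cells, whose median region difference of 0.40 over 6 genes became -0.04.

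**Figure D3:**
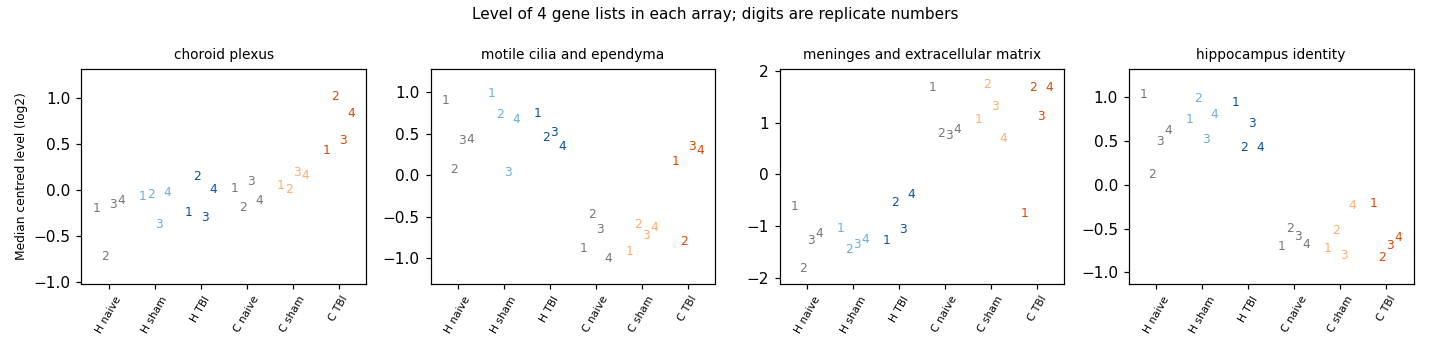
Median level of 4 gene lists in each array, after centring each gene on its mean over the 24 arrays (log2); the digit is the replicate number. Cortex TBI replicate 1 lies at -0.76 for meninges and extracellular matrix, and replicate 2 at -0.80 for motile cilia, apart from the rest of their group.

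The list of hippocampus identity, neuronal markers that separate this tissue from the cortex, was examined beside the ciliary genes, since these are also high in the hippocampus. Over its 16 tested genes the median cortex effect was -0.01 and 0 passed in either direction. Its level in the cortex TBI arrays was -0.83 to -0.22, and in cortex sham -0.81 to -0.24. C1ql2 was 0.90, 0.84, 0.79 and 3.04 in cortex sham and 2.95, 0.82, 1.19 and 1.54 in cortex TBI, so the groups overlapped, and sham replicate 4 and TBI replicate 1 were high. Prox1, which specifies granule cells of the dentate gyrus, had a cortex effect of 0.03 ± 0.15.

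In the comparisons within a tissue, 60 probes were called in the cortex, 0.24% of those tested, of which 59 were higher after TBI, and 1 probe without a gene name was called in the hippocampus (0.004%). These counts alone do not show that the tissues differ; the region difference above is the test of that. Tesk1, a kinase that acts on cofilin, was the 1 called probe that fell in the cortex, by 0.72 on the log2 scale, with an adjusted p of 0.0226 and a hippocampus effect of -0.43 ± 0.11. Across the 25006 probes the effects of the 2 tissues correlated at Pearson's r = 0.37 and Spearman's rho = 0.40, given as a description, since probes are not independent and both tissues come from the same rats. Past the fold and p threshold in both tissues were 199 probes, of which 169 were higher in both, 27 lower in both and 3 opposite. They were 27% of the probes that passed in the hippocampus and 19.0% of those that passed in the cortex.

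The shared effect was tested on the mean of both tissues in each of the 8 rats. In this test 0 probes (0%) were called by limma at an adjusted p under 0.05, with 3381 at an unadjusted p under 0.05. At the fold and p threshold 615 were higher (2.46%) and 99 lower (0.396%). The count depended on the fit, since the average of the 2 effects over the 16 arrays, which takes the tissues of a rat as independent, called 522, and 130 with rat as a random block. Folr1 had the smallest p among the higher named genes (shared effect 2.22 ± 0.21, adjusted p = 0.0563), with the 2 unequal parts given above. The next, Ppp1r36, a regulatory subunit of protein phosphatase 1, moved alike in both tissues. It was -0.66, 0.34, -0.29 and 0.15 in hippocampus sham and 1.06, 0.73, 0.81 and 1.02 in hippocampus TBI, and -0.33, -0.72, -0.49 and 0.02 in cortex sham and 0.66, 1.09, 0.76 and 1.18 in cortex TBI. The groups did not overlap in either tissue. Its shared effect was 1.16 ± 0.13 (adjusted p = 0.0585), its cortex effect was called with an adjusted p of 0.0255, and its region difference was -0.28 ± 0.29.

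Mgst1, a microsomal glutathione transferase, was higher in both tissues too, with 3.07 to 3.51 and 4.14 to 4.92 in cortex sham and TBI and 4.11 to 4.33 and 4.55 to 5.02 in the hippocampus. Its shared effect was 0.87 ± 0.12 (adjusted p = 0.114), and with 1.14 ± 0.15 in the cortex and 0.61 ± 0.15 in the hippocampus it also had a region difference of -0.53 ± 0.22 (unadjusted p = 0.0273). Tmem126a, a mitochondrial membrane protein, had nearly equal effects of 0.41 ± 0.08 and 0.47 ± 0.08, and Thrap3, an mRNA splicing factor, of 0.52 ± 0.12 and 0.53 ± 0.12 in hippocampus and cortex. Of the genes lower in both, Ibsp, bone sialoprotein, had the smallest p, with a shared effect of -0.98 ± 0.11 (adjusted p = 0.0585). It was 0.57 to 1.59 in hippocampus sham and -1.13 to 0.56 in TBI. Galr2, a galanin receptor, had a shared effect of -0.79 ± 0.15.

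**Figure D4:**
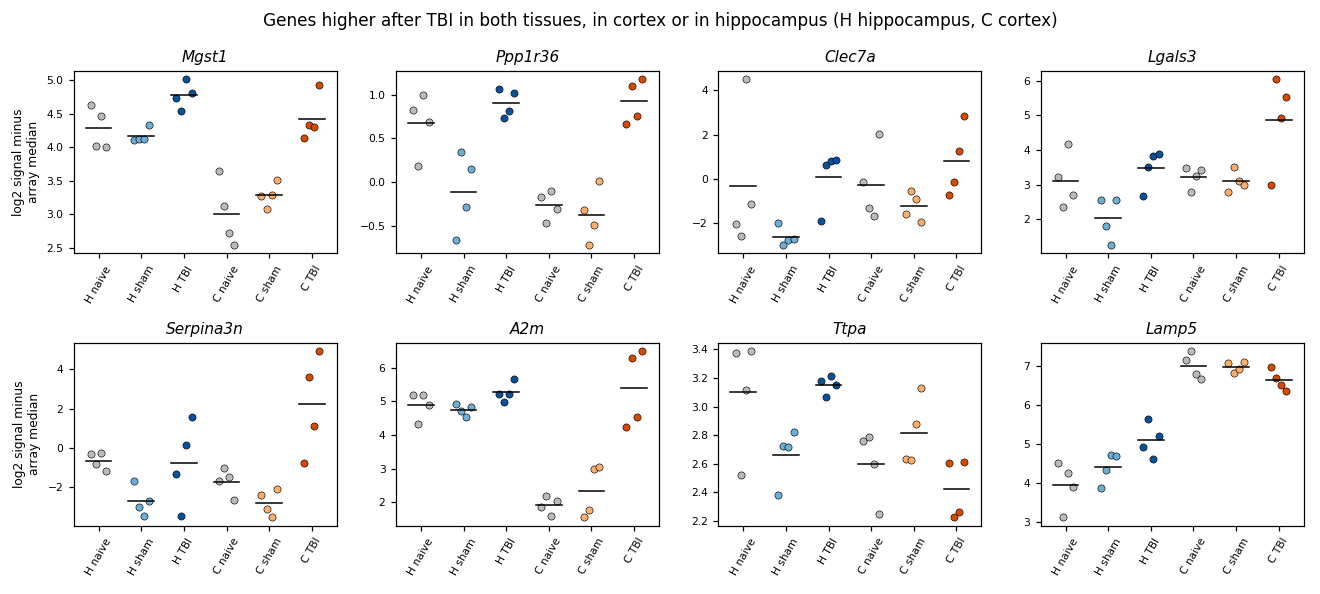
Level of 8 genes (log2 signal minus the array median) in each of the 24 arrays, with a bar at the group mean. Mgst1 and Ppp1r36 are higher in TBI than in sham without overlap in both tissues, A2m lies at 1.56 to 3.05 in cortex sham and 4.25 to 6.48 in cortex TBI, and Ttpa and Lamp5 have positive region differences of 0.88 and 1.04.

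Lists of microglial, astrocyte, complement, acute phase, interferon and chemokine genes had positive medians in both tissues and median region differences between -0.12 and 0.13. Of 23 tested microglia and macrophage genes, 4 passed upwards in the hippocampus and 7 in the cortex, 0 passed downwards, and 0 passed for the region difference, whose median was -0.12. Cd68, a lysosomal protein of phagocytes, was 0.16 to 0.69 in hippocampus sham and 1.1 to 1.65 in hippocampus TBI, a difference of 1.06 ± 0.37. In the cortex it was 0.96 to 1.44 and 0.95, 1.63, 2.17 and 3.51, a difference of 0.89 ± 0.37, with TBI replicate 1 at the level of sham. Of 20 genes of disease-associated microglia, the state described around plaques and lesions, 10 passed upwards in the cortex and 2 in the hippocampus, with medians of 0.54 and 0.32 and 0 genes past the threshold for the region difference. Clec7a, a pattern recognition receptor, was -2.98 to -1.96 in hippocampus sham and -1.90, 0.65, 0.83 and 0.87 in TBI, where it was at least 1.67-fold higher. Its cortex effect was 2.05 ± 0.71 and its region difference 0.65 ± 1.01. Lgals3, galectin-3, had effects of 1.42 ± 0.52 (hippocampus) and 1.78 ± 0.52 (cortex), and Spp1, osteopontin, of 1.13 ± 0.58 and 1.85 ± 0.58.

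Complement genes had medians of 0.28 in the hippocampus and 0.36 in the cortex over 21 tested genes, with 3 and 5 past the threshold upwards and 0 for the region difference. Serping1, the inhibitor of C1, was higher by 1.20 ± 0.42 and 1.12 ± 0.42. Of 26 genes of reactive astrocytes 3 passed upwards in the hippocampus, 7 in the cortex, and their median region difference was 0.00; Ptx3 was the 1 that passed. Gfap, the intermediate filament of astrocytes, had 0.59 ± 0.67 and 1.20 ± 0.67 and passed in neither tissue. Of 16 genes of the acute phase and of IL-6 signalling 4 and 5 passed, among them Socs3, a feedback inhibitor of that pathway, at 0.63 and 0.77. Without cortex TBI replicates 1 and 2, 5 astrocyte and 6 acute phase genes passed downwards for the region difference. Interferon response, chemokine and MHC class I genes also had positive medians in both tissues, of 0.12 to 0.40, with 0 genes past the threshold for the region difference.

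The median over 34 genes of neuron and synapse was -0.15 (hippocampus) and -0.20 (cortex), and 1 gene passed downwards in each, Grin2a, a subunit of the NMDA receptor, at -0.54 in the hippocampus and Gad2, an enzyme of GABA synthesis, at -0.61 in the cortex. The median region difference was 0.10 and 0 genes passed. Of 29 voltage-gated channel genes, Kcnq3, a subunit of the M-current potassium channel, passed downwards in both tissues, at -0.68 and -0.77, Cacna1e, a calcium channel subunit, passed downwards in the cortex at -1.25, and in the hippocampus Cacnb4 passed upwards, at 0.69. Cacnb4 was the 1 that passed for the region difference. In the list of interneurons and neuropeptides, Vip, a neuropeptide of interneurons, passed upwards in the hippocampus at 0.59, and Crh, another neuropeptide, downwards in the cortex at -0.55, with a region difference of 0.55 that passed upwards. Lists of oligodendrocytes and myelin, axon guidance, heat shock, striatum, thalamus, vascular genes and interneurons had medians between -0.13 and 0.17 in either tissue.

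**Figure D5:**
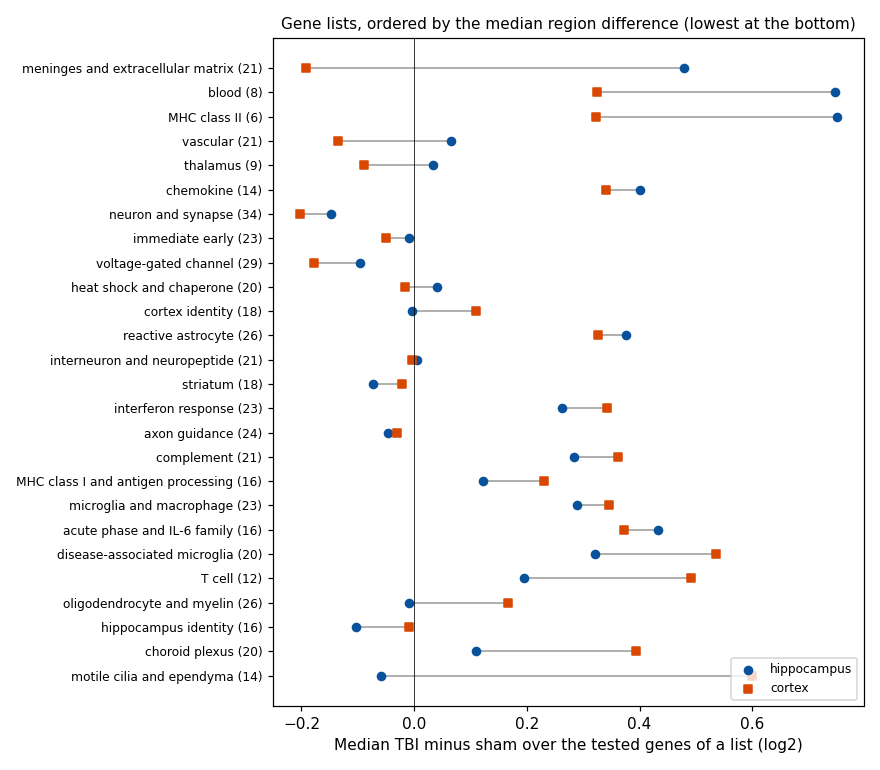
Median log2 difference of TBI minus sham over the tested genes of each of 26 lists (number of genes in parentheses), in the hippocampus (circles) and the cortex (squares), ordered by the median region difference. Motile cilia, at -0.06 and 0.60, is at the bottom, and meninges and extracellular matrix, at 0.48 and -0.19, at the top; the lists of microglia, complement and reactive astrocytes lie to the right of 0 in both tissues.

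As a background for the region difference, sham was compared with naive in the same way, which asks how far 2 groups without a TBI differ between the tissues. In each tissue the naive and sham arrays shared a slide, and the TBI arrays lay on another. Sham minus naive thus holds no difference between slides, whereas TBI minus sham and TBI minus naive both do. The background is not alike in this respect, and naive in place of sham does not remove the slide. This region difference called 82 probes (0.328%), 81 of them higher, more than the 1 probe called for TBI against sham. The naive hippocampus arrays were the most uneven group, with 41.3% to 72.5% of probes well above background. For Folr1 the region difference of sham minus naive was -0.38 (adjusted p = 0.915), for Mlf1 -0.43 and for Calml4 -0.84 (unadjusted p = 0.0286). With naive in place of sham the region difference of TBI was -4.47 for Folr1, with an adjusted p of 0.000596. For Mlf1 it was -3.98 (adjusted p = 0.0123) and for A2m -3.10 (adjusted p = 0.0232). Sham minus naive had a positive region difference for Amn (1.29, unadjusted p = 0.00734), Rgs22 (1.23, unadjusted p = 0.0482), Daw1 (0.98) and Slc26a4 (0.91). With naive in place of sham the region difference of TBI was -1.24 for Amn, -1.05 for Rgs22, -1.49 for Daw1 and -1.80 for Slc26a4, each smaller in size than against sham. For Ttpa it was 0.22, with -0.66 for sham minus naive (unadjusted p = 0.0158).

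The same contrast was computed in other rats, 2 weeks and 1 year after the injury, with 16 arrays each. At 2 weeks cortex sham replicate 3 stood apart, with 93.0% of probes well above background against 42.3% to 60.9% in the other 15 arrays and a median log2 signal of 10.8 against 5.30 to 6.26. Folr1 had -1.80 ± 0.88 at 2 weeks (adjusted p = 0.511; -1.44 ± 0.85 without that array) and -0.82 ± 1.73 at 1 year (adjusted p = 0.875), and neither passed the threshold. Of the 10 genes with the lowest differences at 6 months, 9 were tested at 2 weeks, 6 of them with a negative value, with or without that array, and 10 at 1 year, 4 of them negative. A2m was the lowest at 2 weeks, with -2.66 ± 0.79 (unadjusted p = 0.00405) and a called cortex rise of 3.33 (adjusted p = 0.014), and Rgs22 had -1.49 ± 0.48. Without that array these were -2.13 ± 0.60 and -1.74 ± 0.32, the latter with an adjusted p of 0.0659. Of the 10 genes with the highest differences, 1 was positive at 2 weeks, or 3 without that array, and 2 at 1 year. The share of negative values over all tested probes was not counted, so these counts are not read as agreement or disagreement with 6 months. At 2 weeks both sets had negative medians, -0.64 for the lowest and -1.27 for the highest genes. Without that array the medians were -0.82 and -0.22. Ttpa had -1.20 at 2 weeks, but 0.04 without that array, and -0.98 ± 0.25 at 1 year (unadjusted p = 0.00151), opposite in sign to 6 months. For the region difference 0 genes of either set were called at these intervals by limma. Of the lowest genes A2m and Rgs22 had an unadjusted p under 0.05 at 2 weeks, and Slc26a4 at 1 year, where at 1.34 ± 0.54 (unadjusted p = 0.0247) it was opposite in sign to 6 months. Of the highest genes Ttpa and Herpud1, the latter at -0.82 ± 0.31 (unadjusted p = 0.0187), had one at 1 year, both opposite in sign to 6 months.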

How the data were processed

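The values are the processed signal intensities of 1-colour Agilent rat arrays as deposited in the scanner files, which the authors made with Agilent Feature Extraction 11.5.1.1 per the file headers; the authors then analysed their data in GeneSpring. A table of values deposited by the authors was used as an alternative scaling; 72 of its sample columns were not used. Spots marked as outliers were left out (261 to 585 an array), spots of a probe were averaged, and log2 values were centred on the median of each array. A probe was kept if all arrays of any 1 of the 4 groups had it well above background (25006), and 46.3% of all probes have a gene symbol. limma 3.58.1 in R 4.3.3 fitted the 16 arrays together, with Benjamini-Hochberg adjustment over all tested probes, and the scripts were tested on simulated data. The number of arrays, 4 a group, limits the precision.

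Named genes are those called (up to 20 a comparison). They also include the 10 lowest and 10 highest region differences with a fold of 1.4, p under 0.01 and rats that do not overlap. For the shared effect, where 0 probes were called, the 8 higher and 8 lower genes with the smallest unadjusted p were taken. For each list, the members past fold 1.4 and p under 0.05 and the 4 brightest others were taken. Other genes were named after their values were seen, namely Tmem212, Col1a1, Col8a1, C3, C1ql2, Serpina3n, Clec7a, Cd68, Serping1, Lgals3, Spp1, Lpl, Aqp1, Socs3, Grin2a, Gad2, Kcnq3, Cacna1e, Vip, Kif9, Tsnaxip1, Cfap161 and Iqcg. Genes were read from their brightest tested probe, except for the promoters. There a gene entered through any of its probes past fold and p. Iqcg, Cfap161, Kif9 and Tsnaxip1 were read from their probe with the smallest p for the region difference. The comparison, its members and its 26 lists were chosen with earlier results of these data known. Same-numbered arrays of both tissues are from 1 rat, so rat was an alternative block. Other alternatives changed the scaling, the background correction, the filter, the weights, the control group and the arrays in the fit.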

Additional observations from a re-analysis of the deposited data

Results flagged for a closer look

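The region difference of Folr1, a log2 value of -4.09, was the 1 called between the tissues in the main fit. It was -2.52 with the cortex effect at its bound, and the call was lost with each rat as a block (adjusted p = 0.479 by limma). Over 44 genes and 4 groups, a single array lay far from the other 3 of its group in 16 of 176 instances. Chance gives about 1 in 20 for genes not chosen by their values, but some of these genes were named after their values were seen, so the share is not compared with it. Hippocampus sham replicate 3 was low for Folr1 (-0.15), Cfap126 (2.09), Tmem212 (1.14), Tp73 (-0.028) and Lpl (2.19). Cortex TBI replicate 2 was low for Foxj1 (1.23) and Tmem212 (-3.77) and high for Col8a1 (5.33) and Lpl (3.57). Cortex sham replicate 4 was high for C1ql2 (3.04), and cortex sham replicate 2 for Cd3e (-1.31). Hippocampus sham replicate 4 was high for Mgst1 (4.33), hippocampus sham replicate 2 was low for Cd74 (3.51), and hippocampus sham replicate 1 was high for Tesk1 (4.79). Hippocampus TBI replicate 1 was low for Clec7a (-1.90) and replicate 4 for Spp1 (0.063).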

How the results depend on the processing

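The region difference of Folr1 kept its sign under each alternative in which it was tested (the filter on all 16 arrays leaves it out) and its call with quantile normalization, 75th percentile scaling, array weights, the authors' value table, rat as a random block, all 24 arrays and naive in place of sham. Its adjusted p rose above 0.05 with no filter on dim probes (-4.09, adjusted p 0.0787), with the replicate number as a block (-4.09, 0.11), with rat as a fixed replicate block (-4.09, 0.479), without cortex TBI replicates 1 and 2 (-4.16, 0.124) and with normexp background correction (-1.66, 1). Leaving out an array or rat gave -4.63 to -3.86. The last 2 alternatives, the one that also left out hippocampus sham replicate 3, the list counts and the 2-week values without single arrays, and the naive levels of probes bright in all 16 arrays, were chosen after seeing the data. Slide as a random block could not be fitted, since each group lies on 1 slide, and normexp used the median signal because the files hold no mean signal. The causes of the changes below were not tested.

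For the region difference, probes called numbered 0 under normexp, no filter, the filter on all 16 arrays, both replicate blocks and without cortex TBI replicates 1 and 2, 67 with naive in place of sham, and 32 without those arrays and hippocampus sham replicate 3. Probes past fold and p numbered 236, 899 and 225 under normexp, no filter and the strict filter, 954 with array weights, 2926 with naive, and 916 without the 3 arrays. Leaving out arrays or rats gave 0 to 3 called and 386 to 855 past fold and p, with 598 to 1146 at p alone.

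In the hippocampus 0 probes were called with the 75th percentile, the authors' table, no filter, the strict filter and the fits of 12 and 8 arrays, 2 with normexp and with the replicate block, 139 with array weights and 1437 with naive. Past fold and p were 260 with normexp, 1571 with no filter, 306 with the strict filter and 3210 with naive. Leaving out arrays gave 0 to 7, 639 to 1029, and 1729 to 2962 at p alone. In the cortex 36, 38 and 32 were called with 75th percentile scaling, with quantile normalization and with the authors' table, 321 with normexp, 2 with no filter, 1742 with array weights, 17 with the replicate block and with 12 arrays, 7 with 8 arrays, and 202 without TBI replicates 1 and 2. Past fold and p were 656, 6743, 489 and 1760 with normexp, no filter, the strict filter and array weights, and 1595 without those replicates. Leaving out arrays gave 2 (without sham replicate 2) to 269 (without TBI replicate 2), 810 to 1314, and 2187 to 3872.

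For the shared effect 2, 4 and 3 were called with 75th percentile scaling, with quantile normalization and with the authors' table, 7 with normexp, 294 with array weights, 1 with the replicate block, 522 with the average contrast and 130 with rat as a random replicate block. Past fold and p were 278, 4157, 272 and 1120 with normexp, no filter, the strict filter and array weights. Leaving out rats gave 0 to 5, 584 to 1030 and 2361 to 4153. The shared effect of Folr1 ranged from 2.03 to 2.34. Igsf7 l1 turned to -0.33 with naive in place of sham.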

Other observations

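In naive rats, 1 array of each tissue stood apart for immune genes. Cd74, the invariant chain of MHC class II, was 10.6 in hippocampus naive replicate 3 against 2.08 to 5.14 in the other naive hippocampus arrays, and 8.67 in cortex naive replicate 4 against 4.59 to 6.24. C3, the central complement component, was 9.17 and 7.63 in these arrays, against 4.12 to 5.23 and 3.71 to 4.47 in the others of their groups. The replicate numbers of the 2 arrays differ, so they are not labelled as the same rat. Neither array enters the comparison of TBI with sham, but both enter the comparison of sham with naive.

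Col8a1, a short-chain collagen, was 5.33 in cortex TBI replicate 2 and -0.58 to 0.87 in all other cortex arrays of sham and TBI.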
